A study of Homo sapiens with 16 samples.

Results

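SKMEL28 is an established human melanoma cell line. Of the 16 RNA-seq libraries of the study, 4 are described here: 1 from wild-type SKMEL28, numbered replicate 4 in the labels, and 3 (replicates 1, 2 and 3) from the D2 MITFKO line, an SKMEL28 derivative in which the gene of the transcription factor MITF was edited. They were taken by their labels, with no use of measured values. All 4 were grown in the same medium, which was changed before harvest, and no drug or other agent is named for them. The remaining libraries were 6 from MITFKO/TFE3KO double knockouts (clones 3 and 13, 3 each), made by CRISPR-Cas9 in the D2 MITFKO line, and 6 from the A375 melanoma line (3 wild type and 3 TFE3KO), which are used here only where named. The MITFKO replicates were separate flasks of a single edited line, so their spread is that between cultures, and the edit and anything else that sets this line apart from its parent cannot be told apart. Wild type had 1 library, so the error of every comparison came from the 9 replicated SKMEL28 libraries, and the wild-type library was assumed to vary as they did. The file headers also list another shared input number for its STAR alignment (3) than for the alignments of those 9 (38), so anything that differed with that input cannot be told apart from the genotype.

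MITF is a basic helix-loop-helix leucine zipper factor that binds the E-box and the longer M-box in promoters. In melanocytes it drives pigment genes, and in melanoma its level separates a differentiated, dividing state from a dedifferentiated, invasive one. The pigment, lysosome, invasion and stress programmes are the best known part of that switch. The families below lie outside them: signalling ligands and receptors, channels, adhesion and cytoskeletal genes, transcription factors, chromatin and RNA-processing genes, and enzymes.

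Depth was similar across the 4 libraries, with 23177517 counts in wild type and 18891915 to 20445904 in MITFKO. Levels are given as CPM, counts relative to library size after trimmed-mean scaling, with the 3 MITFKO values in the order of replicates 1, 2 and 3. MITF itself read 524 CPM in wild type and 527, 499 and 468 CPM in MITFKO (log2 change -0.07, SE 0.09, adjusted p = 0.516). A count of reads includes transcripts of an edited allele, so this value does not check the label. Each of 14 melanoma and melanocyte markers had reads in at least 1 of the 4 libraries. Their summed level was 15159 CPM in wild type and 7800.0 to 8300.3 CPM in MITFKO, with 8 lower and 4 higher. PMEL alone made 10151 CPM of it in wild type and 3210.4 to 3393 CPM in MITFKO. MLANA fell from 718 CPM to 3.84, 2.77 and 2.79 CPM. TYRP1 was near 0 throughout, at 0.638 CPM in wild type and 0.046, 0.101 and 0 CPM in MITFKO. SOX10 was kept, at 671 CPM in wild type and 784, 822 and 855 CPM in MITFKO, and its small rise turned to a log2 change of -0.17 once a trend with GC content was removed. Markers of other cell types were low or carried by 1 gene. Keratinocyte markers summed to 33.7 CPM in wild type and 22.5 to 27.6 CPM in MITFKO, with 3 of 10 at 0 in all 4 libraries. Those of fibroblasts summed to 50.1 CPM and 52.1 to 61.6 CPM, with 2 of 10 at 0. For endothelium the sums were 2.47 CPM and 2.94 to 4.17 CPM, and for leukocytes 318 CPM and 242 to 253 CPM, mostly from CD68, with 4 of 10 at 0.

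Of 14605 genes tested with edgeR's quasi-likelihood test and Benjamini-Hochberg adjustment, 7100 (48.6%) were called at an adjusted p under 0.05. The calls were 3676 genes higher in MITFKO (25.2%) and 3424 lower (23.4%). A size of at least 2-fold was reached by 1463 genes higher (10.0%) and 993 lower (6.8%), together 16.8%. The wild-type value lay outside the range of the 3 MITFKO values for 12394 genes (84.9%). Non-overlap of these 4 libraries therefore separates few genes, and it was required of the genes named by size. Because so many genes were called, a family's count is read against these shares, and its median log2 change against 0.015 for all genes tested. The words rose and fell mark called genes. The low-count filter let a gene pass on its level in a single SKMEL28 library, and only 1 of these 10 libraries was wild type. A family's tested members therefore include genes present in only 1 group, with more chances to pass on the edited side. Where few listed members were tested, the rises and the median can lean upward for that reason. Channels opened by transmitters, for example, had 6 rises and 7 falls but a median of 0.58.

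**Figure D1:**
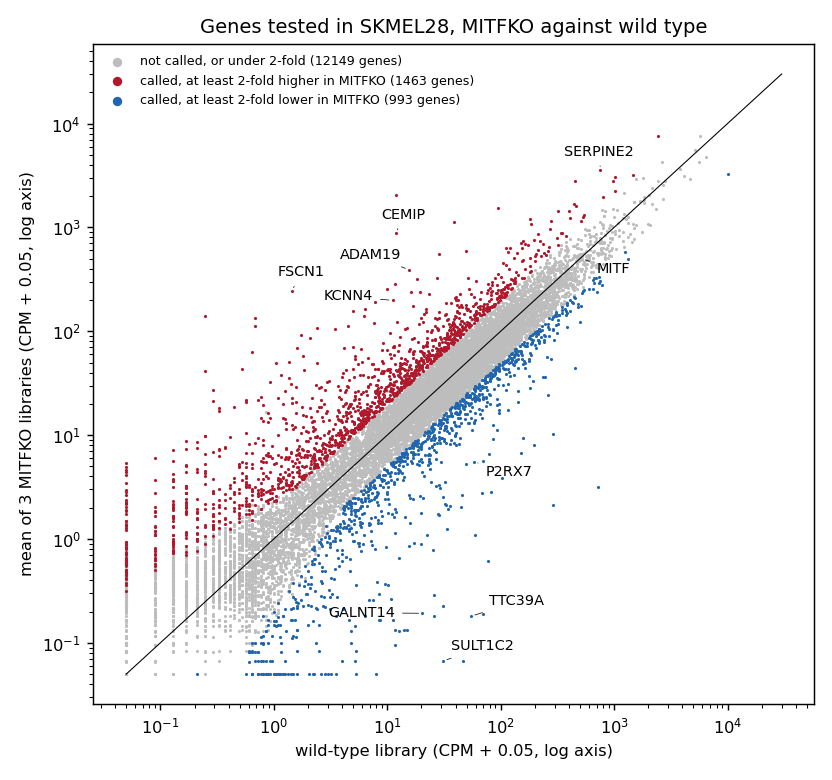
Level of each of the 14605 tested genes in the wild-type library (x axis, CPM plus 0.05, log scale) and its mean over the 3 MITFKO libraries (y axis, same scale), with the line of equal levels. Red points are the 1463 genes called at least 2-fold higher in MITFKO and blue points the 993 called at least 2-fold lower; MITF lies on the line.

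Among the tested genes of growth factor ligands and of the TNF superfamily, more were higher in the MITFKO line than lower. Many listed members of both were untested, so the rises and the median can lean upward through the low-count filter. Among EGF-family, FGF, PDGF and neurotrophic ligands, 12 of 26 tested genes rose and 2 fell (48 listed), with a median log2 change of 1.06. TGFA, a ligand of the EGF receptor, read 28.7 CPM in wild type and 560.5, 549 and 555 CPM in MITFKO, which is 19.3-fold higher (log2 change 4.27, SE 0.12, adjusted p = 1.80e-17). BDNF, the neurotrophin that binds TrkB, read 0.199 CPM in wild type and 10.4, 9.20 and 9.95 CPM in MITFKO, 48-fold higher (log2 change 5.58, SE 0.50, adjusted p = 3.56e-09). The 3 MITFKO flasks lay close together for both genes and far from the wild-type library. NRG3, a neuregulin that binds ERBB4, went the other way, with 11.6 CPM in wild type and 1.94, 1.81 and 1.94 CPM in MITFKO (log2 change -2.60, SE 0.35, adjusted p = 2.03e-06).

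In the TNF superfamily 19 of 46 listed genes were tested, and of these 12 rose and 1 fell, with 10 by at least 2-fold upward and 1 by at least 2-fold downward. NGFR, the low-affinity neurotrophin receptor and a marker of neural-crest-like melanoma cells, read 6.30 CPM in wild type and 157, 169 and 171 CPM in MITFKO, 26.3-fold higher (log2 change 4.71, SE 0.39, adjusted p = 4.78e-05). TNFRSF12A, the receptor of TWEAK, rose 4.53-fold from 22.2 CPM to 97.8 to 104 CPM. Its ligand TNFSF12 was low and fell, with 5.18 CPM in wild type and 1.94, 2.41 and 2.09 CPM in MITFKO (log2 change -1.27, SE 0.39, adjusted p = 0.00898). The chemokine list had few detectable genes: 8 of 45 listed genes were tested, and of these 4 rose and 0 fell. CXCL8, the neutrophil attractant interleukin 8, read 7.58 CPM in wild type and 123, 132 and 109 CPM in MITFKO, 16-fold higher (log2 change 4.00, SE 0.37, adjusted p = 7.39e-05). CXCL16, a transmembrane chemokine, rose 3.24-fold, to 35.3 to 37.8 CPM from 11.3 CPM.

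NF-kappa-B genes moved with more modest sizes. Among its subunits and inhibitors 10 of 20 tested genes rose and 1 fell (20 listed), and 4 of the rises were at least 2-fold. RELB, the subunit of the non-canonical arm, read 5.18 CPM in wild type and 22.9, 26.9 and 27.5 CPM in MITFKO (log2 change 2.31, SE 0.27, adjusted p = 1.34e-06). BCL3, a nuclear IkB protein, rose 5.82-fold, and NFKB1, which encodes the p105 precursor of p50, rose 1.92-fold. TNFAIP3, the ubiquitin-editing inhibitor A20, rose 2.61-fold. NFKBIA, the classical inhibitor and an NF-kappa-B target, was not called, at 13.8 CPM in wild type and 13.1, 13.1 and 12.3 CPM in MITFKO (adjusted p = 0.718). Within the JAK, STAT and SOCS group with the gp130-family receptors, 11 of 26 tested genes rose and 4 fell (29 listed). Receptors of the leukaemia inhibitory factor and oncostatin M type rose, with LIFR at 8.21 CPM in wild type and 34, 35.2 and 32.4 CPM in MITFKO (log2 change 2.04, SE 0.15, adjusted p = 2.20e-10) and OSMR 2.93-fold higher. IL6R fell 2.55-fold. STAT3, which acts downstream of gp130, was not called (log2 change -0.11, adjusted p = 0.275), and its feedback inhibitor SOCS3 fell 1.71-fold.

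Notch and Hedgehog genes rose with no called fall among their core members. Notch signals between neighbouring cells through ligands of the JAG and DLL families, and the cleaved receptor acts on HES and HEY genes. Of 9 listed ligands and receptors 7 were tested, 4 rose and none fell. NOTCH3 read 1.24 CPM in wild type and 12.5, 11.2 and 15.1 CPM in MITFKO (log2 change 3.38, SE 0.33, adjusted p = 1.75e-08). NOTCH1 read 4.47 CPM in wild type and 27.4, 28.3 and 30.9 CPM in MITFKO (log2 change 2.69, SE 0.21, adjusted p = 6.39e-10). The ligand JAG1 rose 1.73-fold, and NOTCH2 1.55-fold; reads of NOTCH2 may be shared with its near-identical partial copies, so its value is uncertain. DLL1 had 0 counts in all 4 libraries, and DLL3 was not called, at 11.2 CPM in wild type and 12.5, 10.6 and 9.45 CPM in MITFKO. Among targets and modulators 10 of 19 tested genes rose and 2 fell (24 listed). DTX1, an E3 ligase that modulates Notch, was low in wild type, with 0.518 CPM in wild type and 20.4, 24.4 and 20.4 CPM in MITFKO, 41.5-fold higher (log2 change 5.37, SE 0.39, adjusted p = 2.20e-10). HES4 rose 6.08-fold and HEY1 1.42-fold, while HES6 fell 3.12-fold and DTX4 2.70-fold. HES1, the most widely used Notch readout, was not called, at 44.4 CPM in wild type and 42.7, 50.7 and 42.3 CPM in MITFKO (adjusted p = 0.901). The receptors named were thus higher, while among HES and HEY genes HES4 and HEY1 rose, HES1 was not called and HES6 fell.

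The Hedgehog list had 13 of 17 genes tested, with 7 higher, none lower and a median log2 change of 0.90. GLI2, the main activator of the pathway, read 5.86 CPM in wild type and 23.4, 24.3 and 27 CPM in MITFKO (log2 change 2.08, SE 0.17, adjusted p = 1.34e-09). GLI3, which acts mostly as a repressor, rose 3.55-fold, to 40.6 to 45.4 CPM from 11.9 CPM. PTCH1, the Hedgehog receptor and itself a pathway target, read 20.8 CPM in wild type and 56.9, 48 and 55 CPM in MITFKO (log2 change 1.36, SE 0.13, adjusted p = 7.60e-09). Of the tyrosine phosphatases, 11 of 27 tested genes rose and 4 fell (37 listed). PTPRZ1, a receptor phosphatase of neural cells, read 11.5 CPM in wild type and 75.7, 69.8 and 72.8 CPM in MITFKO, 6.33-fold higher (log2 change 2.66, SE 0.11, adjusted p = 1.86e-14). PTPRH rose 22.3-fold, from 1.20 CPM, and PTPRE fell 11.4-fold, from 15.9 CPM to 1.14 to 1.85 CPM.

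Protease inhibitors, surface proteases and enzymes that build or cut glycosaminoglycans formed the next group, and it too was mostly higher. For serpins and cystatins, 19 of 47 listed genes were tested, and of these 10 rose and 1 fell; all of these calls were at least 2-fold. Their summed level was 1596 CPM in wild type and 5864, 5952 and 6142 CPM in MITFKO. The largest part of the MITFKO sums was SERPINE2, protease nexin 1, an inhibitor of thrombin and plasminogen activators, at 756 CPM in wild type and 3501, 3584 and 3601 CPM in MITFKO (log2 change 2.24, SE 0.08, adjusted p = 1.90e-15). CST7, cystatin F, an inhibitor of lysosomal cysteine proteases, read 1.16 CPM in wild type and 18.9, 21.3 and 19.6 CPM in MITFKO (log2 change 4.10, SE 0.32, adjusted p = 5.81e-10). CST1, a secreted cystatin, fell 2.19-fold.

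Among ADAM and ADAMTS genes 11 of 26 tested genes rose and 2 fell (46 listed). ADAM19, a membrane protease that sheds neuregulin, read 15.4 CPM in wild type and 387, 384 and 405 CPM in MITFKO, 25.4-fold higher (log2 change 4.67, SE 0.11, adjusted p = 6.73e-19). ADAMTS17 rose 4.17-fold. In the complement and coagulation list 11 of 21 tested genes rose and 4 fell (45 listed). PLAUR, the urokinase receptor, read 19.3 CPM in wild type and 233, 239 and 239 CPM in MITFKO, 12.3-fold higher (log2 change 3.62, SE 0.12, adjusted p = 2.55e-16). F12, coagulation factor XII, rose 10.8-fold from a low 1.52 CPM. PROS1, the anticoagulant protein S, fell 1.90-fold. SERPINE2 and PLAUR, which act on the same plasminogen activator system, were both above their wild-type level. Annexins and galectins showed another balance: 2 of 13 tested genes rose and 6 fell (28 listed). LGALS1, the abundant galectin 1, fell from 1486 CPM to 731 to 811 CPM, and ANXA3 fell 5.48-fold. ANXA1, an inhibitor of phospholipase A2, rose 1.45-fold.

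Glycosaminoglycans are the sugar chains of proteoglycans and include hyaluronan. For their synthesis and remodelling 42 of 51 listed genes were tested, and of these 25 rose and 5 fell, with 14 by at least 2-fold upward and 3 by at least 2-fold downward and a median log2 change of 0.66. CEMIP, which takes part in the breakdown of hyaluronan, read 11.9 CPM in wild type and 852, 871 and 916 CPM in MITFKO, 74-fold higher (log2 change 6.21, SE 0.49, adjusted p = 5.28e-05). CHST1, a keratan sulfate sulfotransferase, rose 12.6-fold. Of the 5 falls, those named by size act in chain assembly: XYLT1, which attaches the first sugar of heparan and chondroitin chains, read 80.7 CPM in wild type and 21.9, 19.3 and 18.2 CPM in MITFKO (log2 change -2.03, SE 0.13, adjusted p = 1.90e-11), and CHSY3, a chondroitin synthase, fell 31.8-fold to at most 0.249 CPM. Sialyl-, fucosyl- and GalNAc-transferases were split, as 17 of 44 tested genes rose and 12 fell (60 listed). GALNT14, which starts mucin-type O-glycans, read 20.3 CPM in wild type and 0.278, 0.101 and 0.0498 CPM in MITFKO, 134-fold lower (log2 change -7.06, SE 0.52, adjusted p = 1.62e-10). GALNT3, of the same family, fell 17.3-fold, whereas GALNT18 rose 4.07-fold. ST6GAL1, which adds terminal sialic acid to N-glycans, rose from 82.4 CPM to 221 to 223 CPM (log2 change 1.43, SE 0.09, adjusted p = 1.59e-11).

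**Figure D2:**
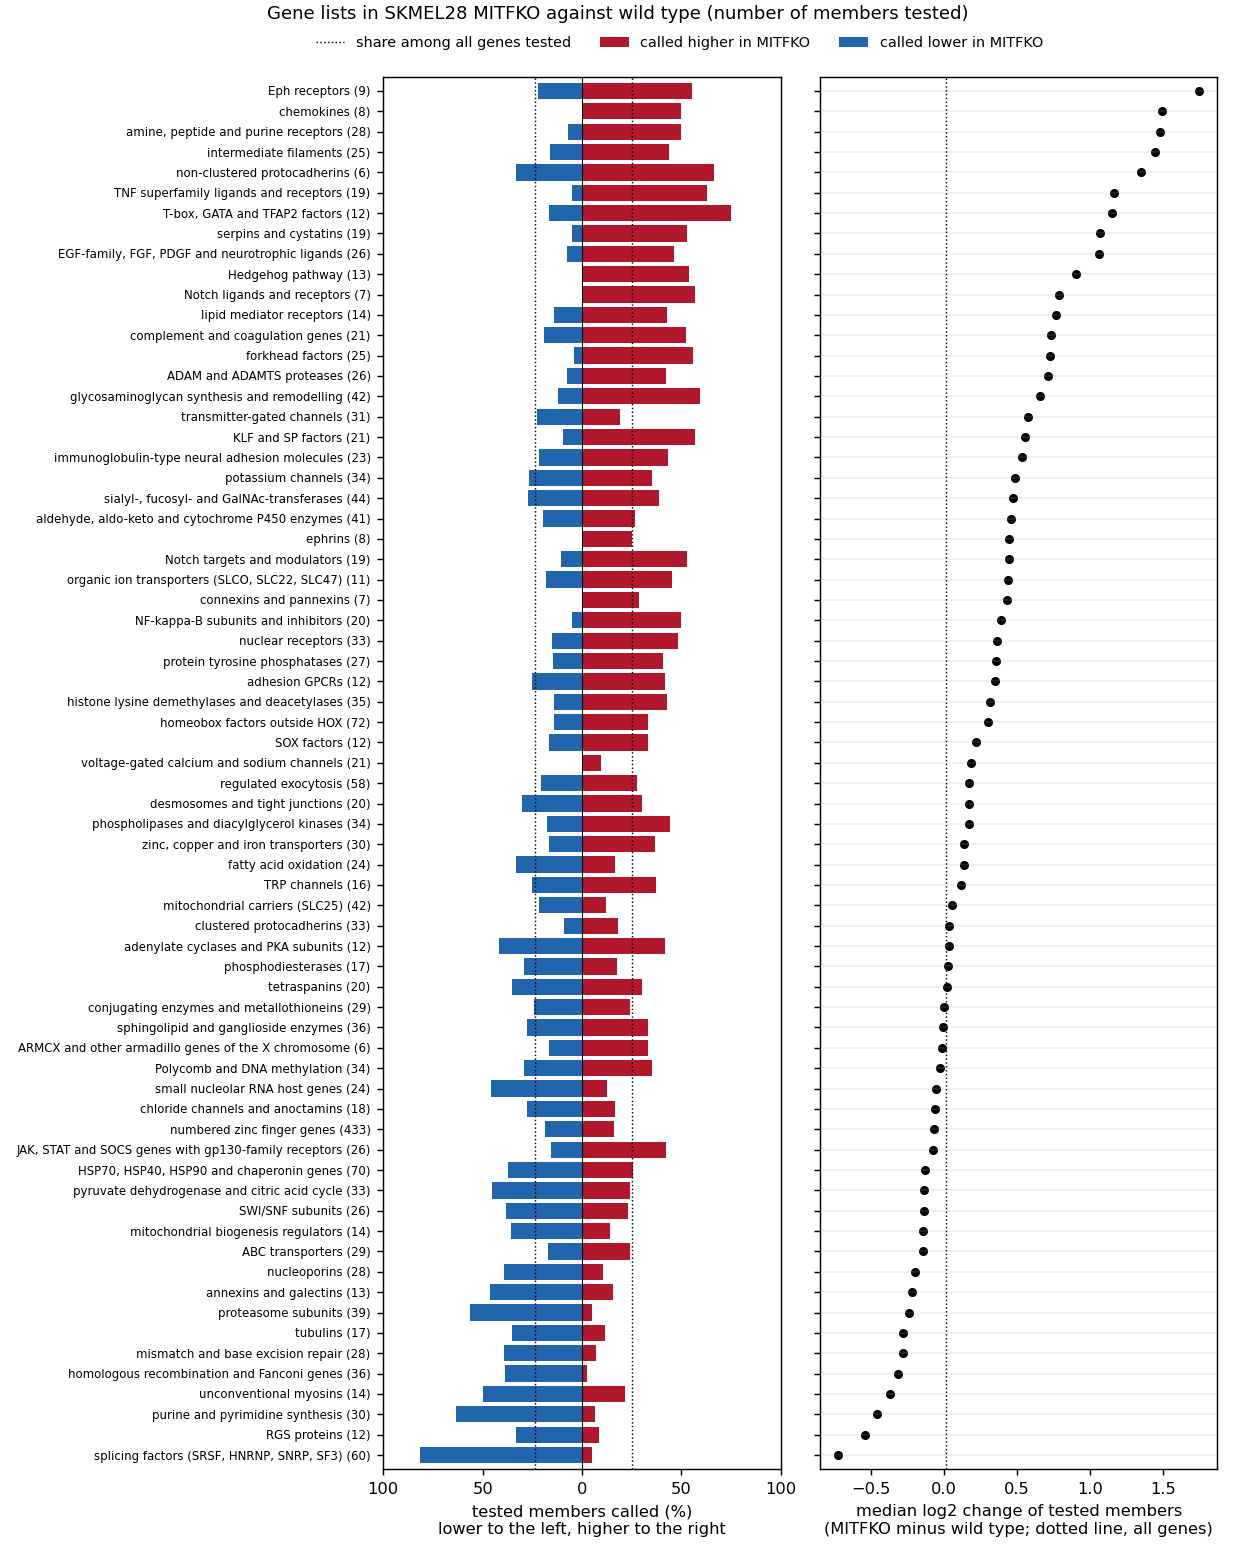
Left, share of the tested members of each of the gene lists shown that was called higher (red, to the right) or lower (blue, to the left) in MITFKO, with dotted lines at the shares among all genes tested, 25.2% and 23.4%; right, the median log2 change of the same members, with the median of all genes dotted. Eph receptors, chemokines and amine, peptide and purine receptors have the highest medians, though most listed chemokines and amine, peptide and purine receptors were untested. Splicing factors have the lowest, at -0.72. The medians whose sign turned under some alternative all lie from -0.14 to 0.43.

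Receptors coupled to G proteins rose more often than they fell. Of 102 listed receptors for amines, peptides and purines only 28 were tested, and of these 14 rose and 2 fell (median log2 change 1.48). With most members untested, this median can lean upward through the low-count filter. CHRM3, a muscarinic acetylcholine receptor, read 4.27 CPM in wild type and 27.4, 26.3 and 27.1 CPM in MITFKO (log2 change 2.66, SE 0.19, adjusted p = 1.54e-10). RAMP2, the partner that turns the calcitonin-like receptor into an adrenomedullin receptor, rose 10.4-fold to 7.64 to 8.46 CPM. EDNRB, the endothelin receptor of the melanocyte lineage, rose 1.63-fold. The falls were OPRD1, the delta opioid receptor, at 58.5 CPM in wild type and 23.2, 22.8 and 21.6 CPM in MITFKO (log2 change -1.38, SE 0.13, adjusted p = 6.38e-09), and MC1R, the melanocortin receptor, which fell 1.31-fold from 160.4 CPM. Lipid mediator receptors gave 6 higher and 2 lower among 14 tested of 35 listed. GPR84, a receptor of medium-chain fatty acids known from myeloid cells, read 1.36 CPM in wild type and 27.5, 31.7 and 34 CPM in MITFKO, 22.8-fold higher (log2 change 4.51, SE 0.34, adjusted p = 6.49e-10). S1PR2, a sphingosine-1-phosphate receptor, rose 6.62-fold. Adhesion receptors gave 5 of 12 tested genes higher and 3 lower (28 listed), with ADGRE5 (CD97) 2.68-fold higher.

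RGS proteins switch off G-alpha subunits. Of 21 listed, 12 were tested, and 4 fell, each by at least 2-fold, against 1 that rose. The share called was 41.7%, beside 48.6% of all genes. RGS20 read 32.4 CPM in wild type and 2.69, 1.46 and 2.24 CPM in MITFKO, 15.1-fold lower (log2 change -3.92, SE 0.25, adjusted p = 1.41e-11). RGS12 read 96.4 CPM in wild type and 16.9, 20.5 and 21.6 CPM in MITFKO (log2 change -2.29, SE 0.14, adjusted p = 7.32e-12). Phosphodiesterases, which break down cyclic nucleotides, gave 3 of 17 tested genes higher and 5 lower (23 listed). Their share called was 47.1%, also near that of all genes, and their median log2 change was 0.03. PDE4B, a cyclic AMP phosphodiesterase, fell 2.54-fold, to 40.8 to 47.9 CPM from 110.0 CPM, and PDE3B fell 3.00-fold. PDE1C, which is activated by calcium and calmodulin, rose 8.79-fold, and PDE4D, a regulator of cyclic AMP in melanocytes, was not called, at 33.8 CPM in wild type and 41.9, 40.4 and 36.4 CPM in MITFKO (adjusted p = 0.179). Adenylate cyclases and PKA subunits were split, with 5 higher and 5 lower of 12 tested. ADCY1 and ADCY6 rose 1.88-fold and 1.97-fold, and ADCY2 and the regulatory subunit gene PRKAR1B fell 2.44-fold and 2.71-fold.

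Ion channels showed large single-gene changes in both directions. Among potassium channel genes 12 of 34 tested genes rose and 9 fell (95 listed), with 9 by at least 2-fold upward and 7 by at least 2-fold downward. KCNN4, the calcium-activated channel of intermediate conductance, read 11.1 CPM in wild type and 191, 198 and 206 CPM in MITFKO, 17.9-fold higher (log2 change 4.16, SE 0.11, adjusted p = 1.31e-17). KCNG1, a modifier of delayed rectifiers, read 12 CPM in wild type and 115, 125 and 129 CPM in MITFKO (log2 change 3.35, SE 0.14, adjusted p = 1.48e-14). KCNAB1, a beta subunit, went from 69.3 CPM to 5.08 to 6.12 CPM (log2 change -3.64, SE 0.17, adjusted p = 9.13e-14), and KCNH1, the EAG channel, fell 4.27-fold. TRP channels gave 6 of 16 tested genes higher and 4 lower (28 listed). TRPV4, a calcium channel opened by warmth and osmotic stress, read 129.9 CPM in wild type and 483, 491 and 544 CPM in MITFKO (log2 change 1.96, SE 0.10, adjusted p = 7.21e-13). TRPM1, the channel first described in melanocytes and a known MITF target, read 28.3 CPM in wild type and 1.57, 1.21 and 2.14 CPM in MITFKO, 17.2-fold lower (log2 change -4.10, SE 0.31, adjusted p = 3.36e-10). TRPM3 rose 2.56-fold, and MCOLN2, a lysosomal channel, fell 1.77-fold. Voltage-gated calcium and sodium channels had 2 of 21 tested genes higher and none lower, or 9.5% called beside 48.6% of all genes.

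Channels opened by transmitters gave 6 of 31 tested genes higher and 7 lower (70 listed), or 41.9% called beside 48.6% of all genes. P2RX7, the ATP-gated channel, read 58.6 CPM in wild type and 5.97, 5.08 and 5.37 CPM in MITFKO, 10.7-fold lower (log2 change -3.42, SE 0.16, adjusted p = 1.44e-13). GABRA5, a subunit of GABA receptors, fell 8.37-fold, and the kainate receptor gene GRIK2 rose 4.80-fold. For chloride channels and anoctamins 3 of 18 tested genes rose and 5 fell (32 listed), a share called of 44.4%. Bestrophin 1 (BEST1) fell from 106 CPM to 57.4 to 65.5 CPM. Of 24 connexin and pannexin genes 7 were tested and 2 rose (28.6% called), with PANX2 3.90-fold higher.

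Transporter lists had 33.3% to 63.6% of their tested genes called, beside 48.6% of all genes, with large changes in single genes. ABC transporters gave 7 of 29 tested genes higher and 5 lower (42 listed). ABCB5, known as a marker of melanoma-initiating cells, read 9.61 CPM in wild type and 0.880, 0.603 and 0.896 CPM in MITFKO, 12-fold lower (log2 change -3.59, SE 0.42, adjusted p = 2.97e-07), and ABCC5 fell 1.67-fold. Organic ion transporters gave 5 of 11 tested genes higher and 2 lower (36 listed), with SLC22A17 7.87-fold and SLC22A23 3.48-fold higher. SLCO2B1, which takes up organic anions, read 46.1 CPM in wild type and 0, 0 and 0.0498 CPM in MITFKO. In the zinc, copper and iron group 11 of 30 tested genes rose and 5 fell (39 listed). SLC30A1, which exports zinc, rose 2.13-fold, and ATP7B, a copper ATPase, fell from 64.5 CPM to 20.1 to 23.4 CPM (log2 change -1.55, SE 0.14, adjusted p = 4.40e-09). Mitochondrial carriers gave 5 of 42 tested genes higher and 9 lower (48 listed); SLC25A13, the aspartate-glutamate carrier citrin, fell 2.58-fold.

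Neural adhesion molecules and Eph receptors had more rises than falls. Among immunoglobulin-type neural adhesion molecules 10 of 23 tested genes rose and 5 fell (35 listed). CADM4 read 11.6 CPM in wild type and 271, 281 and 307 CPM in MITFKO, 24.7-fold higher (log2 change 4.63, SE 0.12, adjusted p = 3.35e-18). NRCAM rose 3.12-fold, and NCAM2 fell 2.94-fold. Eph receptors are tyrosine kinases that bind ephrins on neighbouring cells. Of 9 tested Eph receptor genes (14 listed), 5 rose and 2 fell, each by at least 2-fold. EPHB3 read 2.55 CPM in wild type and 31.6, 26.4 and 29.2 CPM in MITFKO (log2 change 3.51, SE 0.19, adjusted p = 1.17e-12), and EPHB1 rose 21.7-fold from 0.279 CPM. The A-type receptors EPHA5 and EPHA4 fell: EPHA5 read 10.2 CPM in wild type and 0.185, 0.553 and 0.199 CPM in MITFKO, 32.3-fold lower (log2 change -5.01, SE 0.58, adjusted p = 4.32e-07), and EPHA4 fell 4.10-fold from 36.3 CPM. Of 8 tested ephrins 2 were higher, EFNB3 by 2.47-fold.

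Among clustered protocadherins 6 of 33 tested genes rose and 3 fell (53 listed), or 27.3% called beside 48.6% of all genes. Of the protocadherins outside the clusters all 6 tested genes of 12 listed were called, 4 higher and 2 lower, and PCDH1 read 9.17 CPM in wild type and 74.3, 77.9 and 77 CPM in MITFKO (log2 change 3.06, SE 0.12, adjusted p = 7.49e-15). Genes of desmosomes and tight junctions gave 6 of 20 tested genes higher and 6 lower (45 listed). CLDN1, a claudin, was close to 0 in wild type, with 0.359 CPM in wild type and 8.61, 10.3 and 9.95 CPM in MITFKO, and TJP1, the scaffold ZO-1, rose 3.41-fold. Cingulin (CGN) fell 2.10-fold. Tetraspanins gave 6 of 20 tested genes higher and 7 lower (29 listed). CD82, described as a suppressor of metastasis, read 49.2 CPM in wild type and 170.2, 183 and 180.4 CPM in MITFKO (log2 change 1.85, SE 0.09, adjusted p = 2.97e-13). TSPAN13 rose 4.37-fold, and TSPAN10, which is expressed in pigment cells, read 45.9 CPM in wild type and 1.48, 3.07 and 3.23 CPM in MITFKO, 17.7-fold lower (log2 change -4.15, SE 0.52, adjusted p = 1.94e-04).

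In the cytoskeleton, intermediate filament genes were higher and tubulin and myosin genes lower more often. Of 68 intermediate filament genes, mostly keratins, 25 were tested, 11 rose and 4 fell. SYNM, synemin, rose from a high level, with 139 CPM in wild type and 559, 548 and 578 CPM in MITFKO (log2 change 2.02, SE 0.08, adjusted p = 1.47e-14). KRT16, a keratin of stressed epidermis, had 2 counts in wild type and read 0.0797 CPM in wild type and 6.57, 8.45 and 6.47 CPM in MITFKO; keratins have near-identical copies, so the value is uncertain. LMNB1, lamin B1, fell 2.62-fold. Tubulins gave 2 of 17 tested genes higher and 6 lower (23 listed), with TUBA1B falling from 1973 CPM to 1066 to 1084 CPM and TUBB4A 2.74-fold lower. Unconventional myosins gave 3 of 14 tested genes higher and 7 lower (24 listed). MYO1D read 235 CPM in wild type and 36.7, 35.5 and 35.4 CPM in MITFKO, 6.54-fold lower (log2 change -2.71, SE 0.09, adjusted p = 1.33e-16). MYO1E rose 2.32-fold, and MYO5A, the motor that carries melanosomes, fell 1.28-fold from 196 CPM.

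**Figure D3:**
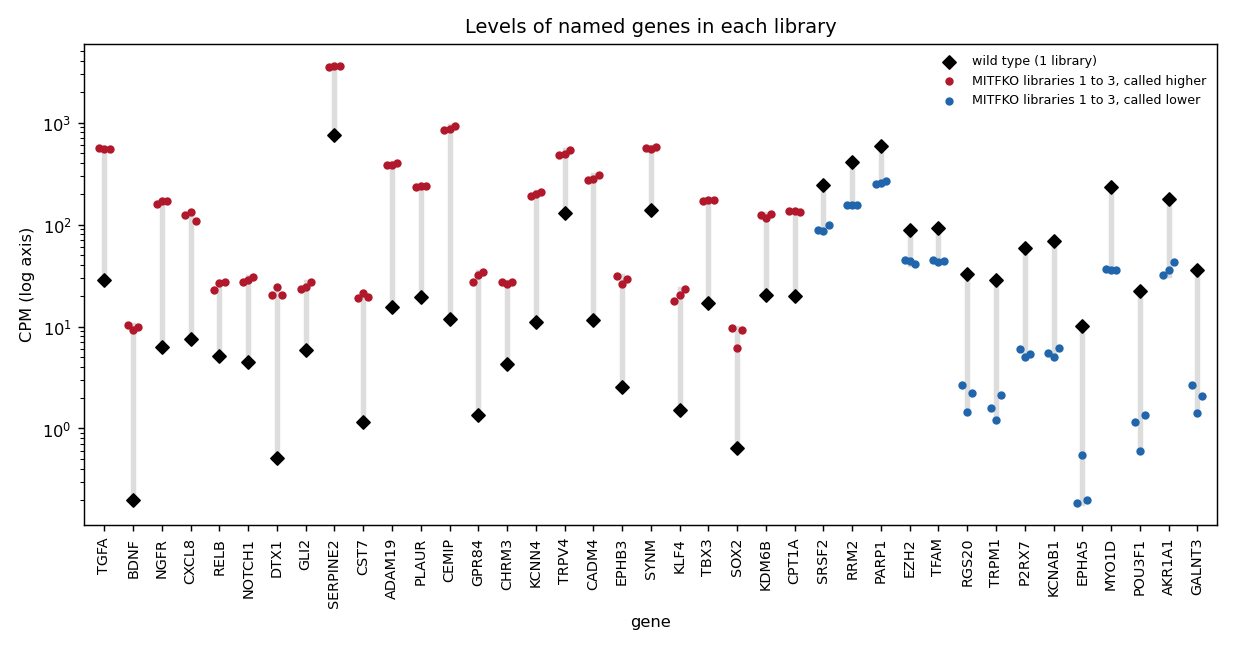
CPM (log axis) in each library for genes named in the text; black diamonds are the wild-type library and coloured points MITFKO replicates 1, 2 and 3, red where called higher and blue where called lower. For each gene the 3 MITFKO points lie on 1 side of the diamond. This was required of genes named by size, and it held for 84.9% of all genes tested. CEMIP goes from 11.9 CPM to at least 852 CPM and EPHA5 from 10.2 CPM to at most 0.553 CPM.

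Several transcription factor families had more rises than the background share. T-box, GATA and TFAP2 factors gave 9 of 12 tested genes higher and 2 lower (25 listed), with a median log2 change of 1.15. TBX3, a repressor used in limb and mammary development, read 17 CPM in wild type and 169, 175 and 176 CPM in MITFKO, 10.2-fold higher (log2 change 3.35, SE 0.26, adjusted p = 5.46e-06). TBX2, its close relative, rose 2.25-fold and TFAP2C 2.93-fold, whereas TFAP2A, a partner of MITF at melanocyte enhancers, fell 1.27-fold. Forkhead factors gave 14 of 25 tested genes higher and 1 lower (46 listed). FOXC2, a factor of mesenchymal tissue, read 0.239 CPM in wild type and 6.53, 6.03 and 7.71 CPM in MITFKO (log2 change 4.78, SE 0.45, adjusted p = 9.54e-09), and FOXF2 rose 7.76-fold. FOXM1, which acts in dividing cells, was the lone fall, at 1.55-fold. KLF and SP factors gave 12 of 21 tested genes higher and 2 lower (27 listed). KLF4 read 1.52 CPM in wild type and 17.9, 20.4 and 23.4 CPM in MITFKO (log2 change 3.76, SE 0.26, adjusted p = 7.49e-11) and KLF5 2.47 CPM in wild type and 28.1, 29.9 and 27.1 CPM in MITFKO (log2 change 3.52, SE 0.24, adjusted p = 3.79e-11).

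Nuclear receptors gave 16 of 33 tested genes higher and 5 lower (46 listed). RORA rose 10.7-fold to 22.2 to 23.3 CPM, and VDR, the vitamin D receptor, rose 1.62-fold. Close relatives in the NR4A group went apart, with NR4A2 7.23-fold higher and NR4A3 2.99-fold lower. SOX factors gave 4 of 12 tested genes higher and 2 lower (19 listed). SOX2, a factor of stem and glial cells, read 0.638 CPM in wild type and 9.68, 6.13 and 9.16 CPM in MITFKO (log2 change 3.69, SE 0.38, adjusted p = 3.62e-08). SOX5 and SOX6 fell 1.93-fold and 1.80-fold, and SOX9 stayed under 1 CPM in the 4 libraries. Homeobox factors outside the HOX clusters gave 24 of 72 tested genes higher and 10 lower (130 listed), with 47.2% called. DLX2 read 6.10 CPM in wild type and 40.0, 37.6 and 35.7 CPM in MITFKO (log2 change 2.63, SE 0.20, adjusted p = 7.90e-10). POU3F1, a POU factor of Schwann cells, read 22.5 CPM in wild type and 1.16, 0.603 and 1.34 CPM in MITFKO, 21.6-fold lower (log2 change -4.43, SE 0.38, adjusted p = 2.15e-09), and its relative POU3F3 fell 3.95-fold. Numbered zinc finger genes formed the longest list and had 70 of 433 tested genes higher and 81 lower (496 listed), or 34.9% called beside 48.6% of all genes; these genes have similar sequences and their counts are uncertain. ZNF536 rose 7.23-fold.

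Genes of chromatin and of nuclear RNA processing differed in direction. Histone lysine demethylases and deacetylases gave 15 of 35 tested genes higher and 5 lower (37 listed). KDM6B, which removes methyl groups from lysine 27 of histone H3 (H3K27), read 20.5 CPM in wild type and 123, 116 and 128 CPM in MITFKO (log2 change 2.58, SE 0.18, adjusted p = 1.06e-08). EZH2, a Polycomb enzyme that adds them, read 89 CPM in wild type and 45, 43.6 and 40.9 CPM in MITFKO (log2 change -1.04, SE 0.12, adjusted p = 1.68e-07). Of this pair, the gene of an eraser was higher and that of a writer lower. The mark itself was not measured here. HDAC7 rose 3.28-fold, and HDAC1 and HDAC2, the class I deacetylases, fell 2.01-fold and 1.82-fold. In the Polycomb and DNA methylation list 12 of 34 tested genes rose and 10 fell (36 listed). TET3, which oxidises methylcytosine, rose 3.32-fold. RBBP4, a histone-binding subunit of several complexes, fell 2.32-fold and UHRF1 2.32-fold. SWI/SNF subunits gave 6 of 26 tested genes higher and 10 lower (28 listed), with PBRM1 2.10-fold lower and the ATPase gene SMARCA4 not called.

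Splicing factors had the highest share of falls among tested members of any list. Of 60 tested SRSF, HNRNP, SNRP and SF3 genes (69 listed), 49 fell and 3 rose, against 23.4% lower among all genes, and 13 of the falls were at least 2-fold. Their median log2 change was -0.72. SRSF2, an SR protein that binds exonic enhancers, read 246 CPM in wild type and 88.3, 85.5 and 98.1 CPM in MITFKO, 2.72-fold lower (log2 change -1.44, SE 0.09, adjusted p = 7.40e-12). SRSF5 fell 2.43-fold, from 151 CPM to 59.7 to 63.8 CPM. SNRPB2, a protein of the U2 particle, was an exception, with 62.3 CPM in wild type and 134, 134 and 135 CPM in MITFKO (log2 change 1.11, SE 0.10, adjusted p = 1.04e-08). Proteasome subunits fell by smaller steps: 2 of 39 tested genes rose and 22 fell (43 listed), none of them by 2-fold, with a median of -0.24. PSMB1, a beta subunit of the core, fell from 163 CPM to 83.9 to 90.8 CPM (log2 change -0.90, SE 0.08, adjusted p = 2.50e-09). Nucleoporins gave 3 of 28 tested genes higher and 11 lower (31 listed); NUP93 and NDC1 fell 2.22-fold and 2.04-fold. Chaperones of the HSP70, HSP40, HSP90 and chaperonin families gave 18 of 70 tested genes higher and 26 lower (84 listed). HSPA4L and DNAJB9, a co-chaperone of the endoplasmic reticulum, rose 3.00-fold and 2.41-fold, and HSPA2 fell 2.18-fold.

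Most called DNA repair genes were lower. In homologous recombination and the Fanconi pathway all 36 listed genes were tested, 14 fell and 1 rose, against 23.4% and 25.2% among all genes. BARD1, the partner of BRCA1, fell 1.97-fold, and BRCA1 itself was not called, at 79.1 CPM in wild type and 77.3, 79.2 and 73.3 CPM in MITFKO (adjusted p = 0.820). RAD50, of the MRN complex, was the lone rise, at 20.8 CPM in wild type and 54, 51.2 and 52.3 CPM in MITFKO (log2 change 1.34, SE 0.14, adjusted p = 4.94e-08). In mismatch and base excision repair 2 of 28 tested genes rose and 11 fell (28 listed). PARP1, the sensor of strand breaks, read 595 CPM in wild type and 249, 253 and 265 CPM in MITFKO (log2 change -1.22, SE 0.08, adjusted p = 7.06e-11), and LIG1, the replicative ligase, fell 2.29-fold. PMS2 rose 1.67-fold; it has near-identical copies and its count is uncertain. Purine and pyrimidine synthesis moved with them: all 30 listed genes were tested, 19 fell and 2 rose, with a median log2 change of -0.46. RRM2, a subunit of ribonucleotide reductase, read 408 CPM in wild type and 156, 154 and 157 CPM in MITFKO (log2 change -1.39, SE 0.14, adjusted p = 3.17e-06). CTPS1, which makes CTP, read 154 CPM in wild type and 54.1, 52.3 and 54.6 CPM in MITFKO (log2 change -1.52, SE 0.13, adjusted p = 1.18e-08), and TYMS fell 1.54-fold.

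Lists of mitochondrial metabolism had more called falls than rises, beside 23.4% lower and 25.2% higher among all genes. Their median log2 changes were -0.14 for biogenesis regulators, -0.13 for the citric acid cycle list and 0.14 for fatty acid oxidation. Biogenesis regulators summed to 675 CPM in wild type and 673, 703 and 731 CPM in MITFKO. The citric acid cycle sum went from 4006 CPM to 3571 to 3622 CPM. That of fatty acid oxidation went from 2504 CPM to 1972 to 1995 CPM. Regulators of biogenesis gave 2 of 14 tested genes higher and 5 lower. PPARGC1A, the coactivator PGC-1alpha and a known MITF target in melanoma, read 6.82 CPM in wild type and 0.926, 0.805 and 2.19 CPM in MITFKO (log2 change -2.38, SE 0.58, adjusted p = 0.00183). TFAM, which packages mitochondrial DNA, read 92.7 CPM in wild type and 44.4, 42.8 and 43.6 CPM in MITFKO (log2 change -1.09, SE 0.10, adjusted p = 1.10e-08), while the polymerase genes POLRMT and POLG rose 1.79-fold and 1.51-fold. For pyruvate dehydrogenase and the citric acid cycle 8 of 33 tested genes rose and 15 fell (35 listed). ME1, the cytosolic malic enzyme, read 47.1 CPM in wild type and 158, 146 and 141 CPM in MITFKO (log2 change 1.65, SE 0.10, adjusted p = 3.97e-12). IDH3B and SUCLG2 fell 1.93-fold and 1.92-fold, and PDK2, a kinase that inhibits pyruvate dehydrogenase, rose 2.05-fold. Fatty acid oxidation gave 4 of 24 tested genes higher and 8 lower (28 listed). CPT1A, which admits fatty acids to mitochondria and limits their oxidation, read 19.8 CPM in wild type and 136, 136 and 133 CPM in MITFKO, 6.83-fold higher (log2 change 2.77, SE 0.11, adjusted p = 7.49e-15). The dehydrogenases ACADSB and ACADM fell 2.92-fold and 2.33-fold, opposite in direction to CPT1A.

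Lipid and detoxification enzymes had single large changes. Sphingolipid and ganglioside genes gave 12 of 36 tested genes higher and 10 lower (44 listed). B4GALNT1, which makes the gangliosides GM2 and GD2, was low but rose, with 0.159 CPM in wild type and 2.50, 1.76 and 2.89 CPM in MITFKO (log2 change 3.85, SE 0.66, adjusted p = 4.56e-05). SGMS2 and SMPD2 fell 3.09-fold and 3.17-fold, and SMPD1, acid sphingomyelinase, rose 1.71-fold. Phospholipases and diacylglycerol kinases gave 15 of 34 tested genes higher and 6 lower (56 listed). The lipid phosphatases PLPP2 and PLPP3 rose 8.18-fold and 4.03-fold, and PLA2G6 fell 3.26-fold. Aldehyde, aldo-keto and P450 enzymes gave 11 of 41 tested genes higher and 8 lower (86 listed), or 46.3% called beside 48.6% of all genes. AKR1A1, an aldehyde reductase, read 176 CPM in wild type and 31.9, 35.7 and 42.6 CPM in MITFKO (log2 change -2.26, SE 0.12, adjusted p = 3.53e-12), and ALDH1B1 fell 2.92-fold. AKR1C1 and AKR1C3 rose 20.1-fold and 11.2-fold; they are near-identical neighbours and their counts are uncertain. Conjugating enzymes and metallothioneins gave 7 of 29 tested genes higher and 7 lower (76 listed), with 48.3% called. NNMT, which methylates nicotinamide, rose 2.27-fold, and GSTO1 fell 2.17-fold.

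Genes of regulated exocytosis gave 16 of 58 tested genes higher and 12 lower (81 listed), or 48.3% called beside 48.6% of all genes. SYT6 and RAB3D rose 25.6-fold and 8.50-fold, and STX7, a syntaxin of late endosomes, fell 2.83-fold. Host genes of small nucleolar RNAs gave 3 of 24 tested genes higher and 11 lower (31 listed), with 8 of the falls at least 2-fold. GAS5 read 75.7 CPM in wild type and 170.4, 192 and 183 CPM in MITFKO (log2 change 1.26, SE 0.16, adjusted p = 3.30e-05), and SNHG3 fell 2.68-fold.

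A few genes were present in 1 group and near 0 in the other. Of genes whose level in the higher group was at least 5 CPM, 7 had at most 3 counts over the 3 MITFKO libraries and 7 had at most 3 counts in wild type. SLCO2B1 had 1157 counts in wild type and 1 in the 3 MITFKO libraries together, a ratio of 2841 with a 95% counting interval from 509 to 112311. SULT1C2, a cytosolic sulfotransferase, had 784 counts in wild type and 1 in the 3 MITFKO libraries together, a ratio of 1925 with a 95% counting interval from 345 to 76135. ARMCX2, an armadillo gene of the X chromosome, had 199 counts and 0, so it was at least 163-fold lower against a floor of 3 counts over the group. ZNF716 had 130 counts and 1, and the noncoding LINC00887 133 and 2. On the other side NHS, a regulator of actin remodelling, read 0.120 CPM in wild type and 7.18, 6.49 and 8.26 CPM in MITFKO. IGFBP5, an insulin-like growth factor binding protein, had 1 count in wild type and read 0.0399 CPM in wild type and 6.34, 5.53 and 6.12 CPM in MITFKO. Such limits reflect counting error alone; the reads carry no molecular identifiers, so copies of a molecule made by PCR are counted too.

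The promoters of the genes that fell are shown because MITF is known to bind the M-box TCATGTGA and the E-box TCACGTGA. In the 250 bases before the RefSeq start site, 4 of the 76 named genes examined that fell at least 2-fold hold 1 of these boxes on either strand (5.26%), beside 2.57% of all genes at least 2-fold lower and 2.31% of all genes tested. Named genes were not a random choice, and 4 is a small count. Below are SULT1C2 (chr2:108288645-108288894, plus strand), ARMCX2 (chrX:101659851-101660100, minus strand) and TSPAN10 (chr17:81642055-81642304, plus strand), from RefSeq on GRCh38.p14, printed in the direction of transcription with the box in capitals.
SULT1C2: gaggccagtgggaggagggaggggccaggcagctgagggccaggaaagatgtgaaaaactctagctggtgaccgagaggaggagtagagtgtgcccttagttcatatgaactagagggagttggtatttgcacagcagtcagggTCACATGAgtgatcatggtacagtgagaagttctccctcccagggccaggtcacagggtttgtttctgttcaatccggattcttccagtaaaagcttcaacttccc
ARMCX2: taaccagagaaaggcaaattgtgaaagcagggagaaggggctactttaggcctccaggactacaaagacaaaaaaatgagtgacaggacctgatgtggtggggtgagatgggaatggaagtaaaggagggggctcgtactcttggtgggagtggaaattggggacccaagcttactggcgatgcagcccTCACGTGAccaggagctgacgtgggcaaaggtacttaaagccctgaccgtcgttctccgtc
TSPAN10: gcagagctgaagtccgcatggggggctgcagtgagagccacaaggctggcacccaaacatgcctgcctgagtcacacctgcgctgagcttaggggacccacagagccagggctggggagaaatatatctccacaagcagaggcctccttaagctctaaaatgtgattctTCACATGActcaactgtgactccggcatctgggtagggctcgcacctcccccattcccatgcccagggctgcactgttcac
The boxes begin 106, 61 and 81 bases before the start of SULT1C2, ARMCX2 and TSPAN10, and RBBP4 holds one 238 bases before its start. Such windows were given for 11411 of the 14605 tested genes. TCATGTGA was found on either strand in 1.16% of 778 promoters of genes at least 2-fold lower, in 0.452% of 1106 promoters of genes at least 2-fold higher and in 0.684% of all. The palindrome TCACGTGA was found in 1.41%, 0.633% and 1.63%. TCACGTGA was thus no more frequent among genes at least 2-fold lower than among all. Of the cores without flanks, CATGTG was in 6.81%, 5.61% and 5.74%, and CACGTG, which lies within TCACGTGA, in 9.38%, 8.14% and 8.84%. With 9 and 5 promoters behind the M-box shares, they are given as a description, and a match is not a binding site.

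Changes were not spread evenly along the chromosomes. In a running median over 50 neighbouring tested genes, 412 of 13253 windows reached 0.5 or more and 507 reached -0.5 or less, between extremes of -0.97 and 0.91. The lowest lay at the end of chromosome 10, where the last 85 tested genes, from ABLIM1 to SCART1, had a median log2 change of -0.78 with 44 lower and 10 higher. The median differences of the 3 MITFKO libraries from wild type in that stretch were -0.65, -0.77 and -0.72. It holds OAT, ornithine aminotransferase, at 317 CPM in wild type and 96.2, 97.6 and 97.2 CPM in MITFKO (log2 change -1.71, SE 0.09, adjusted p = 2.83e-13), and PTPRE. On chromosome 6, 276 genes from AARS2 to SAMD5 had a median of -0.60, with 152 lower and 32 higher. CCN2, a matricellular growth factor of this stretch, fell 5.00-fold and SCML4 5.51-fold. On chromosome 1, 190 genes from USP1 to LAMTOR5 had a median of -0.60, with 105 lower and 16 higher. VAV3, a guanine nucleotide exchange factor there, read 141 CPM in wild type and 24.6, 25.2 and 29.6 CPM in MITFKO (log2 change -2.42, SE 0.12, adjusted p = 1.22e-13). On chromosome 20, 95 genes from PSMF1 to NXT1 gave 50 lower and 12 higher, among them ISM1, which fell 22.5-fold, and PCNA, the replication clamp, which fell 3.11-fold. Other lower stretches lay on chromosomes 1, 2, 6 and 19, with medians of -0.37 to -0.52. That of chromosome 19 ran over 65 genes, from ZNF93 to ZNF302. That of chromosome 1 from HPCAL4 to PRPF38A, with 48 lower and 13 higher, holds CTPS1 and AKR1A1, named above. Whether position bears on the changes of family members was not tested.

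Of 14 stretches of higher genes, 6 lay on chromosome 19 and 2 on chromosome 7, and those described are from these chromosomes; the others were on chromosomes 1, 6, 8, 12, 16 and 22, with medians of 0.43 to 0.53. At the start of chromosome 7, 89 genes from FAM20C to ABCB5 had a median log2 change of 0.49, with 50 higher and 8 lower. FSCN1, the actin-bundling protein fascin, read 1.40 CPM in wild type and 236, 232 and 267 CPM in MITFKO, 175-fold higher (log2 change 7.45, SE 0.73, adjusted p = 1.73e-04). FAM20C, a kinase of secreted proteins, rose 48.8-fold. A later stretch of 83 genes, from OSBPL3 to POLR2J4, holds INHBA, the activin A subunit, at 0.399 CPM in wild type and 19.9, 20.3 and 15.6 CPM in MITFKO (log2 change 5.52, SE 0.35, adjusted p = 4.45e-11), and GLI3. On chromosome 19, 263 genes from PLPP2 to ZNF440 had a median of 0.57, with 150 higher and 17 lower, and SEMA6B, a semaphorin, rose 11.7-fold. GC content moved with these values. Across the 13884 tested genes with a GC value, the Spearman correlation with the log2 change was 0.22, a description across genes, which are not independent replicates. With that trend removed the chromosome 19 median was 0.22, while the stretches on chromosomes 10, 6 and 7 (from FAM20C) stood at -0.80, -0.50 and 0.39. The part of GC content in the remaining values was not tested.

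**Figure D4:**
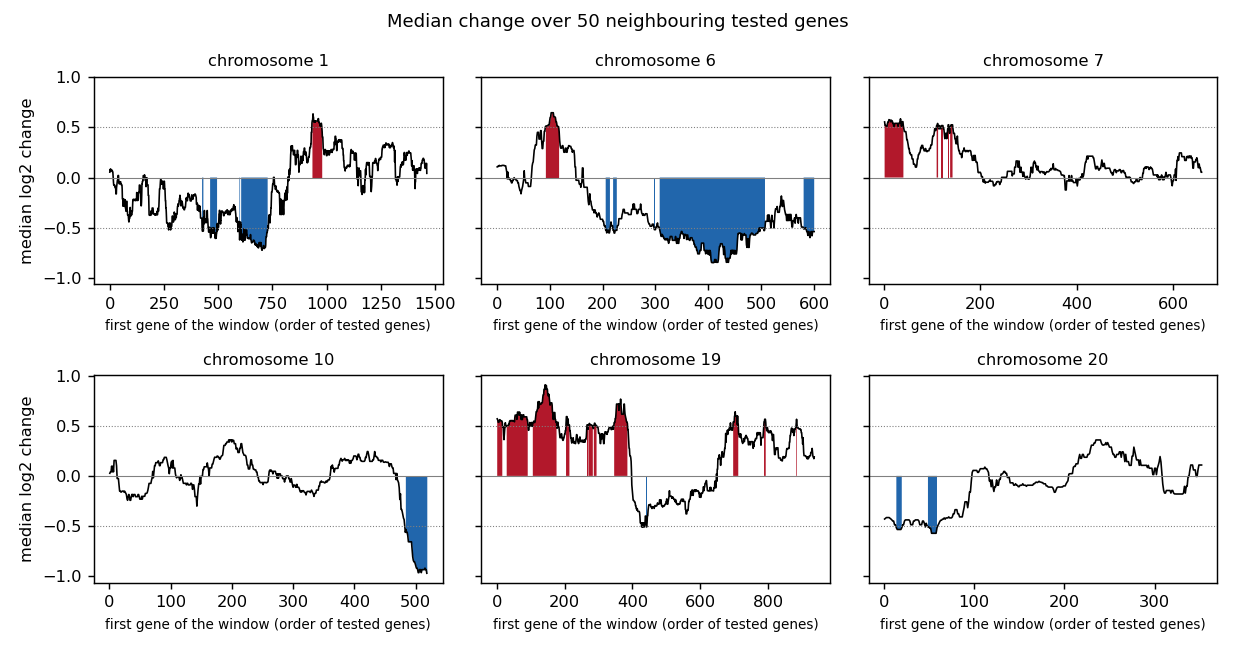
Running median of the log2 change (MITFKO minus wild type) over windows of 50 neighbouring tested genes on chromosomes 1, 6, 7, 10, 19 and 20, against the order of tested genes along the chromosome; dotted lines mark 0.5 and -0.5, and windows past them are filled. The end of chromosome 10 and the middle of chromosome 6 lie below -0.5, and the first part of chromosome 19 lies above 0, with a peak of 0.91.

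Both double-knockout clones were made from the MITFKO line, so their levels of the same genes are given beside it as a description, with no test. POU3F1, at 22.5 CPM in wild type and 1.03 ± 0.385 CPM in MITFKO, was low in the clones as well, at 0.560 ± 0.390 CPM in clone 3 and 0.539 ± 0.0475 CPM in clone 13. KCNN4, at 198 ± 7.84 CPM in MITFKO, read 176 ± 5.98 CPM in clone 3 and 243 ± 13.3 CPM in clone 13. Some of the rises were smaller in both clones. The genes given here were picked without a set rule, and no share over all called genes was counted. GPR84, at 1.36 CPM in wild type and 31.1 ± 3.33 CPM in MITFKO, read 3.67 ± 1.09 CPM in clone 3 and 5.27 ± 1.28 CPM in clone 13. CST7, at 19.9 ± 1.22 CPM in MITFKO, read 3.20 ± 0.535 CPM in clone 3 and 3.14 ± 0.663 CPM in clone 13. GAS5, at 182 ± 10.9 CPM, read 88.1 ± 12.4 CPM in clone 3 and 81.4 ± 12 CPM in clone 13. Others were further from wild type in the clones, such as GALNT18, at 18 ± 1.41 CPM in MITFKO and 33.2 ± 3.95 CPM in clone 3 and 64.2 ± 19.6 CPM in clone 13. CST1 went below its wild-type 53.2 CPM in MITFKO, at 24.3 ± 1.31 CPM, and read 30.9 ± 2.24 CPM in clone 3 and 86.8 ± 6.43 CPM in clone 13. In the chromosome 10 stretch the clones' median differences from wild type were -0.76 for clone 3 and -0.60 for clone 13, from the same wild-type library.

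**Figure D5:**
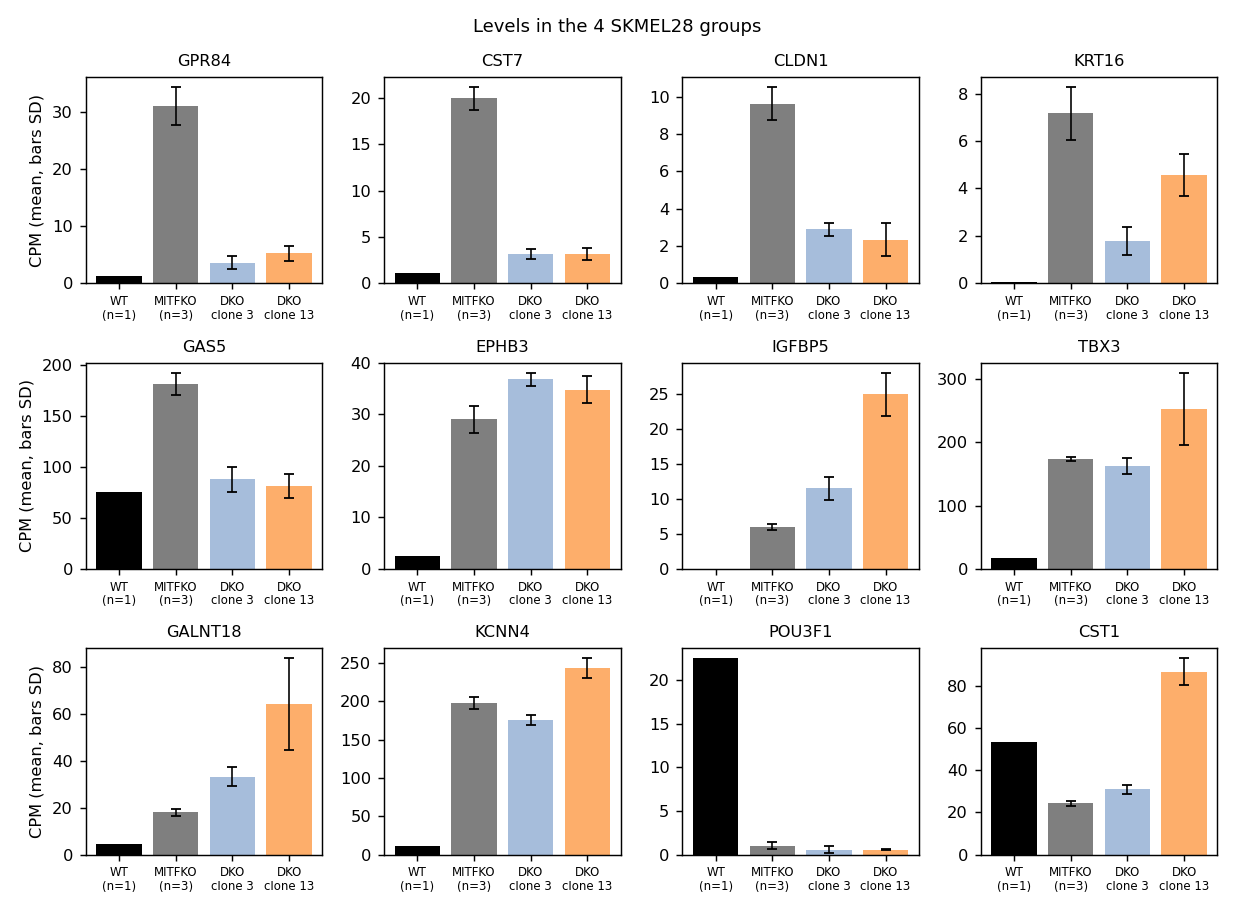
CPM of 12 genes in the SKMEL28 groups: wild type (n = 1), MITFKO and MITFKO/TFE3KO (DKO) clones 3 and 13 (n = 3 each); bars are means and lines are SD, with none for wild type. GPR84, CST7, CLDN1 and GAS5 are high in MITFKO and lower in both clones, whereas KCNN4 and TBX3 are high in all 3 edited groups and POU3F1 is near 0 in them.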

How the data were processed

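The authors deposited 1 file of raw counts for each library, with 28278 gene symbols. Tools named in the submitters' processing notes are STAR, featureCounts and DESeq2, and the genome is hg19. No version, annotation, strand setting or rule for multiply matching reads was found in the labels or headers. Per the file headers, the first input of the STAR alignment is number 3 for the wild-type library and 38 for the other SKMEL28 libraries; what that input was is not stated. With no counting rule given, overlapping genes, antisense genes and near-identical copies are uncertain.

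Testing used edgeR 4.0.16 (R 4.3.3) with filterByExpr by group, TMM factors and the robust quasi-likelihood F-test over the 10 SKMEL28 libraries (6 residual degrees of freedom), as MITFKO minus wild type. Adjusted p means Benjamini-Hochberg adjustment over 14605 genes, called under 0.05. SE is the size of the log2 change divided by the square root of F. CPM and folds were computed here; where a group had 1 to 3 counts the fold is a ratio with an exact 95% interval, and where it had 0 a bound at 3 counts. Symbols were matched to RefSeq on GRCh38 (26872 by symbol, 635 by synonym) for names, gene order and promoters only. GC content from GENCODE transcripts was known for 95.1% of tested genes.

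The 71 gene lists, in 12 themes, and the rule for named genes were chosen with earlier results of these data known. That rule took, for each list, up to 2 called rises and 2 called falls of the largest size among genes with at least 5 CPM in the higher group and a wild-type value outside the MITFKO range, plus preset genes of each list, and the 5 largest changes in each described chromosome stretch. The genes switched on or off were found by counts alone, and NHS, IGFBP5, ZNF716 and LINC00887 were named after their values were seen. Alternatives were other scalings, filters, sample sets, DESeq2 1.42.0, removal of the GC trend, a test against a 1.5-fold change and leaving out each replicate. Promoters on chromosome 8 were not examined among named genes. A few genes and lists are not reported here.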

Additional observations from a re-analysis of the deposited data

How the results depend on the processing

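Counts of called genes stayed within 1.5 times their values under all alternatives but 1. A test against a 1.5-fold change left 1559 genes higher and 1121 lower. Leaving out 1 replicate of MITFKO or of a double-knockout clone gave 3334 to 4062 genes higher, 3086 to 3834 lower, 1371 to 1515 at least 2-fold higher and 899 to 1053 at least 2-fold lower. A change of direction was counted only for named genes called in the main or the alternative fit. With the GC trend removed, 47.4% of calls were higher, against 51.8%, and 3 named genes changed direction. These were MYO1C to -0.041 (log2, adjusted p = 0.684), SOX10 to -0.17 (adjusted p = 0.0416) and SF3A2 to -0.27 (adjusted p = 0.044). Another 15 lost their call. Under that setting the medians of 12 lists also crossed or reached 0, among them connexins and pannexins (0.43 to -0.038) and SOX factors (0.22 to -0.11). Each other alternative changed the sign of at most 5 list medians, such as ABC transporters (-0.14 to 0.14 with at least 10 counts in 3 libraries). The largest shift of a single median was 0.67 with that filter and 0.67 with only MITFKO and wild-type libraries. It was 0.68 without clone 13 and 0.47 with the GC trend removed. Counted in the same way, no named gene changed direction under the other alternatives, DESeq2 included. Of the named genes, 73 lost their call in the test against a 1.5-fold change, 10 to 17 without 1 MITFKO replicate and at most 7 under each of the remaining alternatives. No paired analysis was possible because the wild-type library is numbered 4 and the MITFKO libraries 1, 2 and 3. The spread of wild type cannot be measured from 1 library, and genes under a few CPM rest on few counts.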
